A study of Mus musculus with 16 samples.

Results

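The genes described here are 10 mouse regulators and markers of the hair follicle: Lgr5, Lgr6, Cd34, Sox9, Lhx2, Nfatc1, Msx2, Dlx3, Shh and Lef1. They were taken from the count table by gene symbol, 10 of 26357 genes, and each symbol had 1 row. RNA of 16 mouse samples was sequenced in 4 groups of 4: IL-23 or vehicle as the agent, each with a drug vehicle holding 0 mpk of compound given per os (called oral here) or intraperitoneally. IL-23 is a cytokine that sustains IL-17-producing lymphocytes, and the series title places the study in psoriasis-like skin inflammation. The labels give no tissue, strain, age, sex, IL-23 dose or day of harvest, and all 4 groups received a compound vehicle. Each label carries a number of its own, used here as the library's name, and nothing says that samples came from separate animals, cultures or litters, so the p-values cover only how these samples vary among themselves.

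The hair follicle renews itself in cycles from stem cells of the bulge and of the hair germ below it. Wnt signals, read out in the nucleus by LEF and TCF proteins, and hedgehog signals start growth, while BMP signals hold the stem cells at rest. Sox9, Lhx2 and Nfatc1 are transcription factors that maintain bulge stem cells or keep them quiescent, and Msx2 and Dlx3 are homeobox factors of the hair matrix and its differentiating progeny. In bulk samples, fewer cells of a type and less RNA per cell cannot be told apart.

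Over both routes, 8 of the 9 members that could be tested fell with IL-23, none rose, and Dlx3 did not pass the test. The shares for all 14671 genes tested were 38.7% lower and 34.9% higher, so a call in either direction was common in these samples. The median log2 fold change (IL-23 against vehicle) was -1.05 over the 9 members and -0.04 over all genes. Lgr5, Lgr6, Lhx2, Msx2 and Lef1, 5 of the 9, were called lower by at least 2-fold, against 12.5% of all genes. In 7 of the 9, all 8 IL-23 libraries lay below all 8 vehicle libraries, against 19.2% of all genes. The exceptions were Cd34 and Dlx3, whose libraries overlapped. Shh, the tenth gene, had too few counts for the test.

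Within the oral groups 8 of the 9 fell and none rose, against 34.0% of genes called lower and 29.2% higher. Within the intraperitoneal groups 7 of the 9 fell and none rose, against 30.9% lower and 30.8% higher. Cd34 was called lower in the oral groups and not in the intraperitoneal groups, and the difference between its 2 effects did not pass its own test. The median log2 fold change of the members was -1.09 in the oral and -1.15 in the intraperitoneal groups, where all genes had medians of -0.06 and -0.02. Libraries did not overlap for 8 of the 9 in the oral groups (31.8% of all genes) and for 7 of the 9 in the intraperitoneal groups (25.8%). Under each of 3 other library scalings 8, 7 and 8 members fell in the oral groups, the intraperitoneal groups and over both routes, and none rose.

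**Figure D1:**
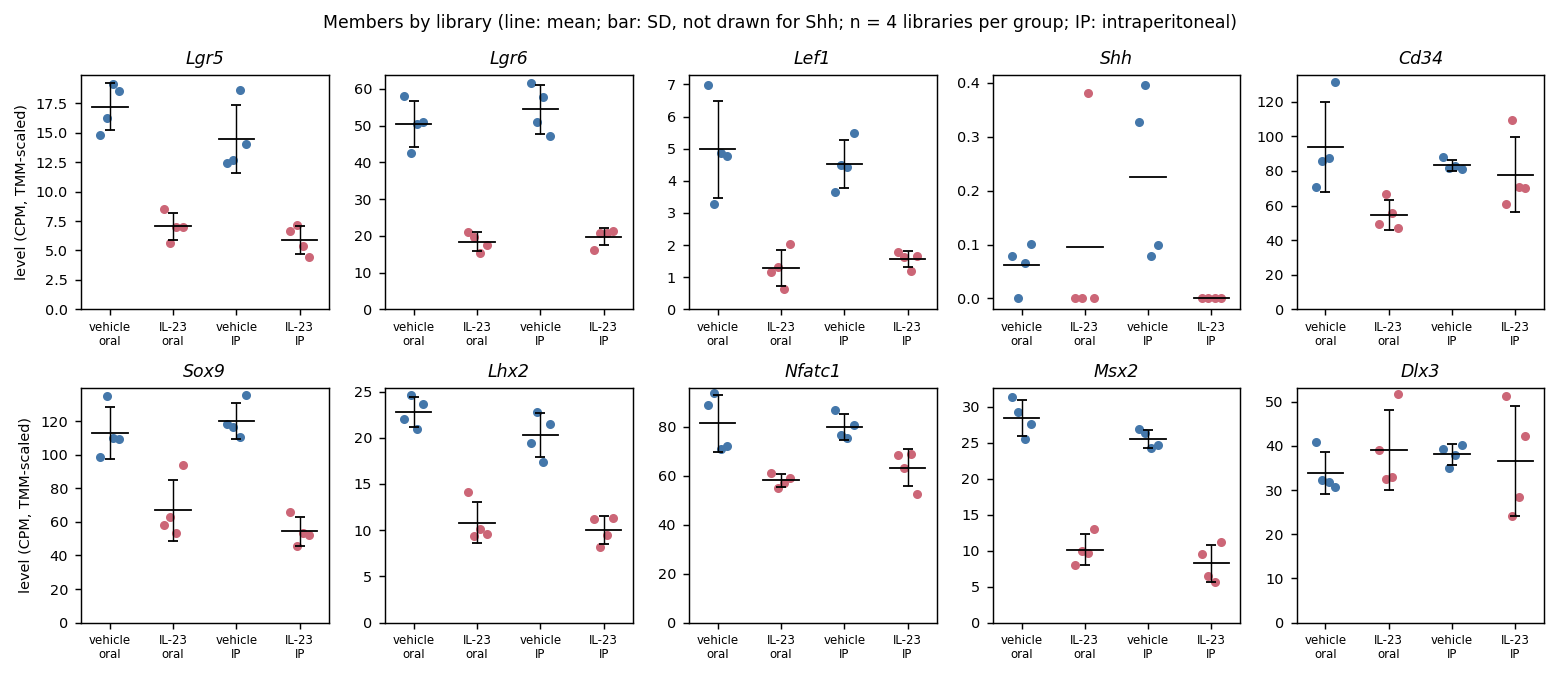
Level of each of the 10 genes in every library, in CPM (counts scaled to library size with TMM factors), with 1 panel per gene and 4 libraries per group; lines are means and bars SDs, not drawn for Shh. The IL-23 libraries sit below the vehicle libraries of the same route for Lgr5, Lgr6, Lef1, Sox9, Lhx2, Nfatc1 and Msx2, and overlap with them for Dlx3.

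The promoters of the 3 members with the largest falls over both routes, Lef1, Msx2 and Lgr6, are shown as the regulatory sequence next to the genes that changed most. Each is the 250 bases before a RefSeq start on GRCm38.p6, written 5′ to 3′ on the gene's strand, and for Lef1 it is the most upstream of 4 starts. Capitals mark exact matches, on either strand, to the letters searched.
Lef1, chr3:131110047-131110296, plus strand: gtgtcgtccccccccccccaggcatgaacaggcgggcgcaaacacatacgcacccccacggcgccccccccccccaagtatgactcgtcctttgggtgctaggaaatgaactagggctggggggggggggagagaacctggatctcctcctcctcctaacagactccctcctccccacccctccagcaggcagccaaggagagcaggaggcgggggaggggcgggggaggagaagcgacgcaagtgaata
Msx2, chr13:53472781-53473030, minus strand: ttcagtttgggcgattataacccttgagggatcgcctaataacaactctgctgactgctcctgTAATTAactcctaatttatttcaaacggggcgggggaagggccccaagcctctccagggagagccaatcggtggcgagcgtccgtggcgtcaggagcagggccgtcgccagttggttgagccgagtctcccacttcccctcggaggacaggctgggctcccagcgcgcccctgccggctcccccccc
Lgr6, chr1:135105277-135105526, minus strand: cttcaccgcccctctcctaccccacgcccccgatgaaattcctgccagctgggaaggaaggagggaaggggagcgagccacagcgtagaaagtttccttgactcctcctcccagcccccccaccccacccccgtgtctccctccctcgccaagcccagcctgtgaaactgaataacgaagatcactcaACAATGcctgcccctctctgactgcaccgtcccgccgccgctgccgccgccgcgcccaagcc

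The capitals in the Msx2 window are the homeobox core TAATTA, 187 bases before the start, present in 4.84% of the 32851 windows of this length in the table. Those in the Lgr6 window are a SOX core, ACAATG, 62 bases before the start, present in 10.7% of windows. Member windows on chromosome 18, which holds Nfatc1, were left out of the search, while the shares of all windows were counted without that exclusion. RefSeq windows were searched for 5 of the 10 genes (Lgr6, Cd34, Lhx2, Msx2 and Lef1), 9 windows in all. Among these 9, ACAATG was found in 2 and TAATTA in 1. The TCF/LEF letters CTTTGAT (3.21% of all windows), the GLI letters GACCACCCA (0.225%) and the STAT letters TTCNNNGAA (7.02%) were found in none of them. A match is a description of letters, and no match says only that these letters are not in these windows.

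Lgr5 and Lgr6 encode receptors for R-spondins, ligands that strengthen Wnt signalling, and mark stem cells of the lower bulge with the germ and of the isthmus. Lgr5 (chr10:115450314-115587780, gene ID 14160) stood at 14.8, 16.3, 19.2 and 18.5 CPM (counts scaled to library size with TMM factors) in the vehicle oral libraries and at 8.53, 5.67, 6.97 and 7.01 CPM in the IL-23 oral libraries. The vehicle intraperitoneal libraries held 12.5, 12.7, 18.6 and 14.1 CPM of it and the IL-23 intraperitoneal ones 6.64, 7.14, 5.34 and 4.47 CPM. Every IL-23 library was below every vehicle library. The log2 fold change of Lgr5 was -1.30 ± 0.18 (SE) in the oral and -1.29 ± 0.18 in the intraperitoneal groups, with edgeR adjusted p of 8.34e-06 and 1.38e-05.

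Lgr6 (chr1:134983300-135105374, gene ID 329252) was the more abundant receptor per kb of exon (7.80 against 3.36 CPM per kb with vehicle). Its level was 58.0, 42.6, 50.5 and 50.9 CPM in the vehicle oral libraries and 21.2, 19.6, 15.2 and 17.4 CPM in the IL-23 oral ones. With the intraperitoneal route it stood at 61.6, 51.0, 57.9 and 47.1 CPM with vehicle and at 16.2, 20.7, 20.8 and 21.2 CPM with IL-23. The lowest vehicle library, at 42.6 CPM, lay far above the highest IL-23 library, at 21.2 CPM. The log2 fold change was -1.47 ± 0.13 (SE, adjusted p = 7.13e-08) in the oral and -1.46 ± 0.12 (adjusted p = 9.58e-08) in the intraperitoneal groups, the smallest p among the members by edgeR. The falls of Lgr5 and Lgr6 were not told apart by the test of their ratio: the log2 ratio of their counts in 1 library moved by 0.17 (exact permutation test of agents within routes, 2-sided, p = 0.282, adjusted p = 0.353 over 5 pairs). This p that misses the threshold does not show that the ratio was unchanged.

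Lef1 (chr3:131110297-131224357, gene ID 16842) encodes a nuclear partner of beta-catenin that is high in the hair matrix and in the precortex. It was the lowest of the 9 tested members in CPM and per kb of exon, at 6.99, 3.29, 4.86 and 4.76 CPM in the vehicle oral libraries and 1.15, 1.33, 0.63 and 2.02 CPM in the IL-23 oral libraries. In the intraperitoneal groups it stood at 3.66, 4.48, 4.44 and 5.50 CPM with vehicle and at 1.78, 1.61, 1.19 and 1.66 CPM with IL-23. The groups did not overlap in either route. Its log2 fold changes, -1.93 ± 0.30 (SE, adjusted p = 2.99e-05) oral and -1.53 ± 0.30 (adjusted p = 0.000301) intraperitoneal, were the largest fall in the oral groups and the second largest, after Msx2, in the intraperitoneal groups by edgeR. They also had the widest errors of the 9 tested members. The 8 IL-23 libraries together held 87 Lef1 counts and the 8 vehicle libraries 436. T cells also express Lef1, and the summed level of 12 T cell markers ran from 45.0 to 52.7 CPM with vehicle and from 45.5 to 112 CPM with IL-23 (45.5 to 55.4 CPM without library 28), with none of them at 0 in either agent. Over both routes 34.9% of all genes tested rose and 38.7% fell. Of 11 T cell genes tested 4 rose and 1 fell over both routes, with a median of 0.61. It was 3 and 2 without library 28, and 2 fell also with upper-quartile or plain scaling, by DESeq2 or without any 1 of libraries 49, 50 and 68. In the intraperitoneal groups 30.8% of all genes rose and 30.9% fell. Of the 11 T cell genes 7 rose there, against 2 without library 28 and 4 without library 67. With plain scaling, by limma or in a fit of those groups alone it was 3 to 4. There 1 fell, against 2 without library 28 and none without library 49. Their part in the Lef1 result was not tested.

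Shh (chr5:28456840-28467101, gene ID 20423), the hedgehog ligand made by the hair germ and matrix, was near the limit of detection. The vehicle libraries held 13 Shh counts in all, 3 of them in the oral and 10 in the intraperitoneal group, and the IL-23 libraries held 3. All 3 lay in the oral library 26, and the other 7 IL-23 libraries were at 0. Over both routes the vehicle level was 2.90 times the IL-23 level by pooled counts, with an exact binomial 95% interval of 0.796 to 15.9 that covers counting error only. Without library 26, which held all IL-23 counts of Shh, the vehicle level was 2.52 times a floor of 3 counts (summed over the group). That value is not a lower bound, because counting error alone gave an exact 95% lower limit of 1.77. Without the vehicle intraperitoneal library 49 the ratio over both routes was 2.14. Within the intraperitoneal groups the vehicle level was 2.15 times the same floor, and the exact 95% lower limit of the ratio was 1.44. In a fit with no count filter the edgeR adjusted p was 0.0376. That call was lost without any 1 of 6 libraries (vehicle 49 and 50, IL-23 25, 28, 31 and 61), at adjusted p of 0.0606 to 0.0887. Over both routes the adjusted p in that fit was 0.133 with all libraries and 0.0188 without library 26, so that 1 library decided the call.

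Sox9, Lhx2 and Nfatc1, the transcription factors of the bulge, all fell, by unequal amounts. Sox9 (chr11:112782210-112787757, gene ID 20682) is needed to form and keep the stem cell pool. It stood at 98.7, 135, 110 and 109 CPM in the vehicle oral libraries and at 58.1, 62.9, 53.1 and 93.8 CPM in the IL-23 oral ones, where library 68 lay close to the lowest vehicle library. The intraperitoneal groups were further apart, with 119, 117, 111 and 136 CPM for vehicle and 66.1, 45.5, 53.7 and 52.0 CPM for IL-23. By edgeR the log2 fold change was -0.75 ± 0.15 (SE, adjusted p = 0.000415) oral and -1.15 ± 0.16 (adjusted p = 9.51e-06) intraperitoneal. Cartilage also expresses Sox9, and 11 of 12 cartilage genes tested fell over both routes, against 38.7% of all genes. The summed level of the cartilage list was 699 to 1080 CPM with vehicle and 233 to 458 CPM with IL-23. The part of cartilage in the Sox9 result was not tested.

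Lhx2 (chr2:38339271-38369737, gene ID 16870), a LIM-homeobox factor that maintains the follicle's stem cells, was more even. Vehicle oral libraries held 22.0, 24.6, 21.0 and 23.6 CPM and IL-23 oral libraries 14.1, 9.41, 10.1 and 9.56 CPM. The intraperitoneal values were 19.5, 22.8, 17.4 and 21.5 CPM with vehicle against 11.2, 8.18, 9.50 and 11.3 CPM with IL-23. No library of 1 agent reached those of the other, and the fold was close to 2 in both routes: log2 fold changes of -1.09 ± 0.14 (SE, adjusted p = 6.67e-06) and -1.02 ± 0.15 (adjusted p = 1.73e-05) by edgeR.

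Nfatc1 (chr18:80606205-80713071, gene ID 18018), which acts downstream of BMP signals to hold bulge cells at rest, had the smallest fall of the 3 factors. It went from 88.8, 93.9, 71.0 and 72.3 CPM to 61.4, 55.1, 57.2 and 59.3 CPM in the oral libraries. In the intraperitoneal libraries it went from 86.9, 76.6, 75.4 and 80.8 CPM to 68.4, 63.3, 68.9 and 52.5 CPM. These groups did not overlap either, though the gap between them was narrow. The log2 fold changes were -0.48 ± 0.10 (SE, adjusted p = 0.000484) and -0.34 ± 0.10 (adjusted p = 0.00784) by edgeR.

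Relative to Nfatc1 in the same library, both other factors fell. The log2 ratio of Lhx2 to Nfatc1 moved by -0.64 with IL-23 (exact permutation test, p = 0.000408, the smallest it can give, adjusted p = 0.00102), with -0.61 in the oral and -0.67 in the intraperitoneal groups. For Sox9 to Nfatc1 it moved by -0.56 (exact p = 0.00449, adjusted p = 0.00748), the mean of -0.31 in the oral and -0.81 in the intraperitoneal groups. The ratio of Sox9 to Lhx2 moved by 0.08, within the spread between libraries (exact p = 0.658, adjusted p = 0.658). These ratios need no scaling between libraries, and the pairs were chosen after the members' values were seen.

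Cd34 (chr1:194938821-194961292, gene ID 12490), a surface sialomucin used to sort mouse bulge cells and also made by endothelium, fibroblasts and mast cells, passed the test in the oral groups and not in the intraperitoneal groups. The vehicle oral libraries held 70.6, 85.7, 87.6 and 132 CPM and the IL-23 oral libraries 49.1, 66.7, 55.4 and 47.3 CPM. In the intraperitoneal groups the vehicle libraries stood within 81.1 to 87.9 CPM and the IL-23 libraries at 61.1, 110, 70.7 and 70.4 CPM. The oral groups did not overlap, while in the intraperitoneal groups library 28 lay above all vehicle libraries and the other 3 IL-23 libraries below them. By edgeR the log2 fold change was -0.78 ± 0.18 (SE, adjusted p = 0.00142) oral and -0.09 ± 0.18 (adjusted p = 0.676) intraperitoneal. The latter was -0.29 (adjusted p = 0.12) without library 28 and 0.01 without library 25. Without vehicle library 51, the highest, the oral value was -0.55 (adjusted p = 0.00842).

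Markers of the other cells that carry Cd34 were compared beside it. The summed level of 12 endothelial genes was 180 to 367 CPM in the vehicle and 145 to 207 CPM in the IL-23 oral libraries, and 228 to 253 against 166 to 286 CPM in the intraperitoneal ones. Vehicle library 51 and IL-23 library 28, which held the most Cd34 of their agents, also held the highest endothelial sums, 367 and 286 CPM. Library 28 further had the highest fibroblast sum of all 16 libraries, 5626 CPM against 1283 to 2149 CPM in the other IL-23 libraries. The 7 mast cell genes tested all fell over both routes, against 38.7% of all genes. The summed level of the 8 mast cell names was 100 to 183 CPM with vehicle and 29.8 to 76.4 CPM with IL-23. The part of these other cells in the Cd34 result was not tested.

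Msx2 and Dlx3, homeobox factors that act in the hair matrix and in hair shaft differentiation, went apart. Msx2 (chr13:53466881-53472780, gene ID 17702) stood at 31.4, 29.3, 25.6 and 27.7 CPM in the vehicle oral libraries and at 8.04, 9.89, 9.64 and 13.1 CPM in the IL-23 oral ones. With the intraperitoneal route it stood at 26.9, 26.4, 24.3 and 24.7 CPM with vehicle and at 9.56, 6.45, 5.70 and 11.3 CPM with IL-23. The highest IL-23 library was far below the lowest vehicle library in both routes. The log2 fold changes were -1.47 ± 0.17 (SE, adjusted p = 1.91e-06) and -1.66 ± 0.18 (adjusted p = 1.03e-06) by edgeR.

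Dlx3 (chr11:95120117-95125296, gene ID 13393), which also acts in the upper layers of the epidermis, was 40.9, 32.2, 31.8 and 30.6 CPM in the vehicle oral libraries and 39.1, 32.6, 32.8 and 51.7 CPM in the IL-23 oral ones. The intraperitoneal vehicle libraries lay between 34.9 and 40.3 CPM, and the IL-23 libraries at 51.4, 24.2, 28.4 and 42.2 CPM, on both sides of them. IL-23 libraries thus spread more widely than vehicle libraries, with an SD of 10.2 against 4.12 CPM (n = 8 each), and that difference in spread was not tested. By edgeR the log2 fold change was 0.20 ± 0.19 (SE, adjusted p = 0.366) oral and -0.08 ± 0.19 (adjusted p = 0.753) intraperitoneal, and 0.06 over both routes with a 95% interval of -0.22 to 0.35. The sign over both routes turned with upper-quartile and with plain library scaling (-0.02 and -0.15).

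The ratio of Msx2 to Dlx3 separated all 16 libraries by agent. Its log2 value ran from -0.71 to -0.14 in the vehicle and from -2.42 to -1.71 in the IL-23 libraries, a difference of -1.62 (exact permutation test, 2-sided, p = 0.000408, the smallest it can give, adjusted p = 0.00102 over 5 pairs). It was -1.69 in the oral and -1.55 in the intraperitoneal groups. This pair too was chosen after the members' values were seen. With Dlx3 not called, its p largely restates the fall of Msx2.

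**Figure D2:**
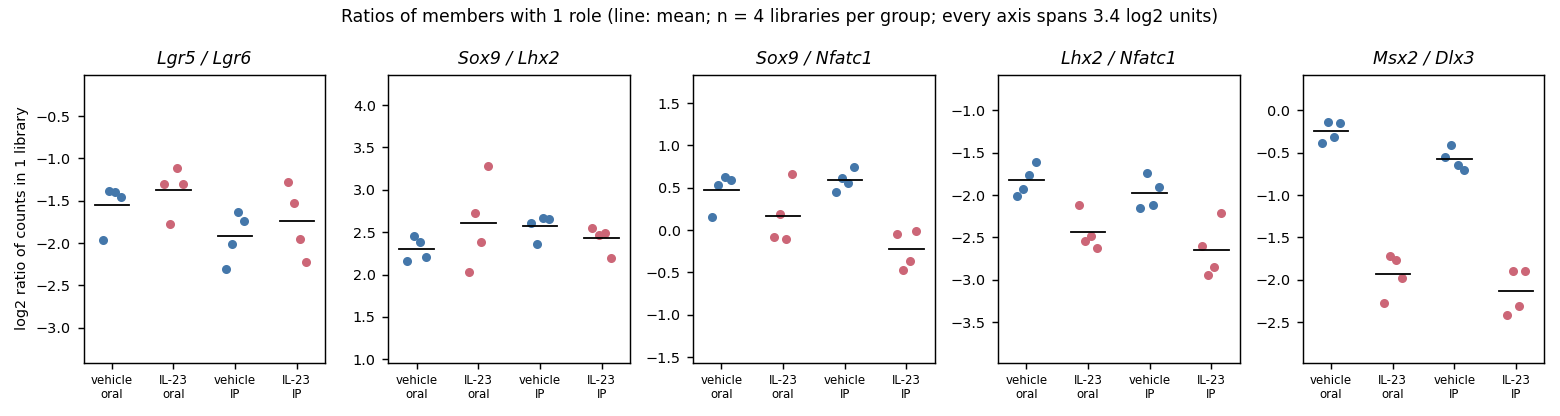
Log2 ratio of the counts of 2 members in the same library, for 5 pairs of members with related roles, by agent and route (n = 4 libraries per group, lines are means). The Msx2 to Dlx3 and Lhx2 to Nfatc1 ratios lie lower in IL-23 libraries of both routes, while those of Lgr5 to Lgr6 and Sox9 to Lhx2 overlap.

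Whether the IL-23 effect depended on the dosing route was tested as the difference between the 2 effects. No member passed, none of the 14671 genes did by edgeR (0%), and DESeq2 called 1 gene. By edgeR 796 genes had an unadjusted p under 0.05. That is near the share of 0.05 that passes where no gene differs. Cd34 was the 1 member among the 796: its effect was higher by 0.69 ± 0.26 (SE, log2) in the intraperitoneal groups, with a 95% interval of 0.14 to 1.23, an unadjusted p of 0.0163 and an edgeR adjusted p of 0.875. For Sox9 the difference was -0.40, with an interval of -0.86 to 0.06. That of Lgr5 was 0.01 (-0.54 to 0.56) and that of Lgr6 0.01 (-0.36 to 0.37), so a route difference of the size of their fall lies outside these intervals. Lef1 allowed the widest range of the 9 tested members, -0.51 to 1.30.

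**Figure D3:**
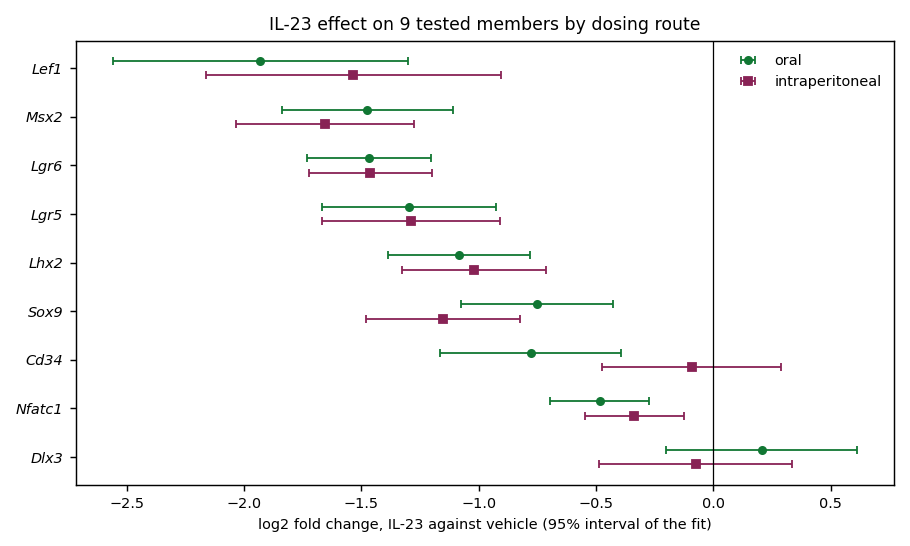
Log2 fold change of IL-23 against vehicle for the 9 tested members in each dosing route, with the 95% interval of the edgeR fit (n = 4 libraries per group). The intervals of all but Dlx3 in both routes and Cd34 in the intraperitoneal groups lie below 0.

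Per kb of exon, the only scale on which levels of different genes can be compared, the vehicle order was Cd34 (mean 33.9 CPM per kb), Sox9 (28.3), Dlx3 (13.8), Msx2 (11.0), Nfatc1 (10.9), Lgr6 (7.80), Lhx2 (6.18), Lgr5 (3.36), Lef1 (1.35) and Shh (0.050). In this order Cd34 and Sox9, Dlx3 and Msx2, Msx2 and Nfatc1, and Lgr6 and Lhx2 overlapped in their ranges over the 8 vehicle libraries. With IL-23, Msx2 dropped behind Nfatc1, to 3.75 against 8.17 CPM per kb, and their ranges no longer overlapped (2.32 to 5.33 and 7.07 to 9.27). Lhx2, at 2.99, and Lgr6, at 2.83 CPM per kb, still overlapped. Sox9, at 14.7 CPM per kb, came level with Dlx3, at 14.5.

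**Figure D4:**
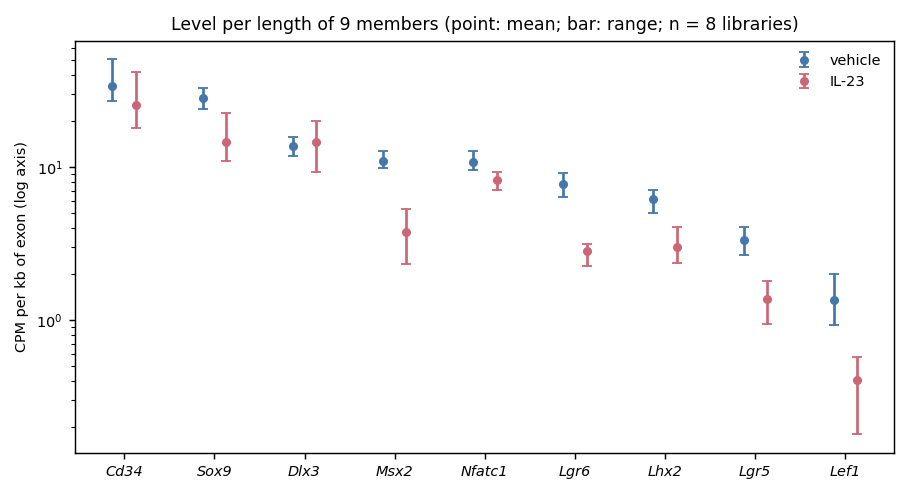
Mean level per kb of exon for 9 members on a log axis, with the range over 8 vehicle and 8 IL-23 libraries; Shh, at 0 in most IL-23 libraries, is left out. The order of Msx2 and Nfatc1 is exchanged between the agents, and the Dlx3 ranges overlap.

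The genes whose levels followed a member most closely over the 16 libraries were found by the root mean squared difference of log2 CPM, each gene centred on its own mean, among 14344 tested genes at 1 CPM or more. For Lgr5 these were Tmem177 (0.196) and Nudt12 (0.228), and for Lgr6 Arhgef10 (0.149) and Ltbp4 (0.150). Cd34 was closest to Mmp2 (0.149) and Tgfbr2 (0.159), genes of connective tissue cells among others. The nearest to Sox9 were Bmp2 (0.150), a BMP ligand, and Ahdc1 (0.157). Lhx2 lay closest to Sh3tc2 (0.162) and Amer1 (0.163), Nfatc1 to Prkar2a (0.114) and Nt5c2 (0.115), and Msx2 to Dmpk (0.197) and Vldlr (0.213). Dlx3 followed Dtx2 (0.150) and Pou2f3 (0.173), a POU factor of the differentiating epidermis, and Lef1 followed Ntn4 (0.259) and Ppp1r36 (0.269). Among the members, Sox9 and Lhx2 were the closest to each other (0.281) and Dlx3 and Lef1 the furthest apart (0.900). The 16 libraries share the agent contrast, which alone brings genes of like fold together.

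The other genes of the bulge and germ list fell in 12 of 14 cases over both routes, with 1 rising and a median log2 fold change of -0.67. With RLE scaling, by DESeq2, or without any 1 of libraries 27, 50 and 28, 2 rose. Krt15, a keratin of bulge and basal cells, averaged 2166 ± 472 CPM (SD, n = 8) with vehicle and 500.3 ± 61.5 CPM with IL-23. Its log2 fold change was -2.10 ± 0.10 (SE, edgeR adjusted p = 3.79e-11). Tcf7l1, a repressor of Wnt targets in bulge cells, fell by 1.31 on the log2 scale, and Foxc1, a quiescence factor, fell by 0.96. Over all genes tested the median was -0.04, with 38.7% lower and 34.9% higher, here and for the lists that follow. The lists were chosen with earlier results of these data known, so their counts are a description and not a test of a pathway.

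Of the hedgehog pathway list 14 of 15 genes tested fell, none rose, and the median was -1.04. Gli1, a direct target and readout of the pathway, averaged 12.8 ± 1.99 CPM (SD, n = 8) with vehicle and 4.83 ± 1.60 CPM with IL-23. Gli2, its main activator, fell by 1.52 on the log2 scale. Hhip, an inhibitor induced by the pathway, fell by 2.08, and Dhh, another ligand, had a log2 fold change of -1.66. Sufu, the cytoplasmic brake, had a value of -0.21 that did not pass.

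Among 50 Wnt pathway genes tested 38 fell and 2 rose, with a median of -0.75. With plain library scaling 45 fell and none rose, and without library 28 it was 35 and 4. With upper-quartile scaling, by limma, or without any 1 of libraries 27, 51, 26 and 25, 1 rose. Wnt10b, a ligand of the growing follicle, had the largest fall among the genes tested in the list by edgeR, from 9.43 ± 2.01 to 1.50 ± 0.44 CPM (SD, n = 8 each). Wnt5b, another ligand, had a log2 fold change of -2.09, and Nkd2 and Notum, both feedback inhibitors of the pathway, had -2.12 and -1.81. Ctnnb1, the gene of beta-catenin, had a value of -0.08 that did not pass. Lists of BMP and FGF hair cycle genes and of the dermal papilla, the signalling centre under the follicle, fell in 18 of 25 and 10 of 14 cases, with 2 and 1 rising and medians of -0.93 and -0.74. The log2 fold change was -1.94 for Bmp4, -1.79 for Bmp6 and -1.97 for the BMP antagonist Grem1, so ligands and an antagonist were lower together. In the dermal papilla list Corin, a protease of that structure, fell by 1.60 and Rspo3, an R-spondin, fell by 1.67. Alpl, an alkaline phosphatase, rose by 2.39, and which cells carried that rise was not tested. With plain scaling 1 BMP and FGF gene rose.

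The placode and matrix list was divided like all genes, with 6 of 17 lower, 6 higher and a median of -0.03. Edar, the ectodysplasin receptor of the placode, fell by 2.26, and the homeobox genes Msx1 and Dlx2 had log2 fold changes of -1.44 and -1.26, while Ovol1, a factor of epidermal differentiation, rose by 1.68 on the log2 scale. Msx1 thus fell as its paralog Msx2 did.

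**Figure D5:**
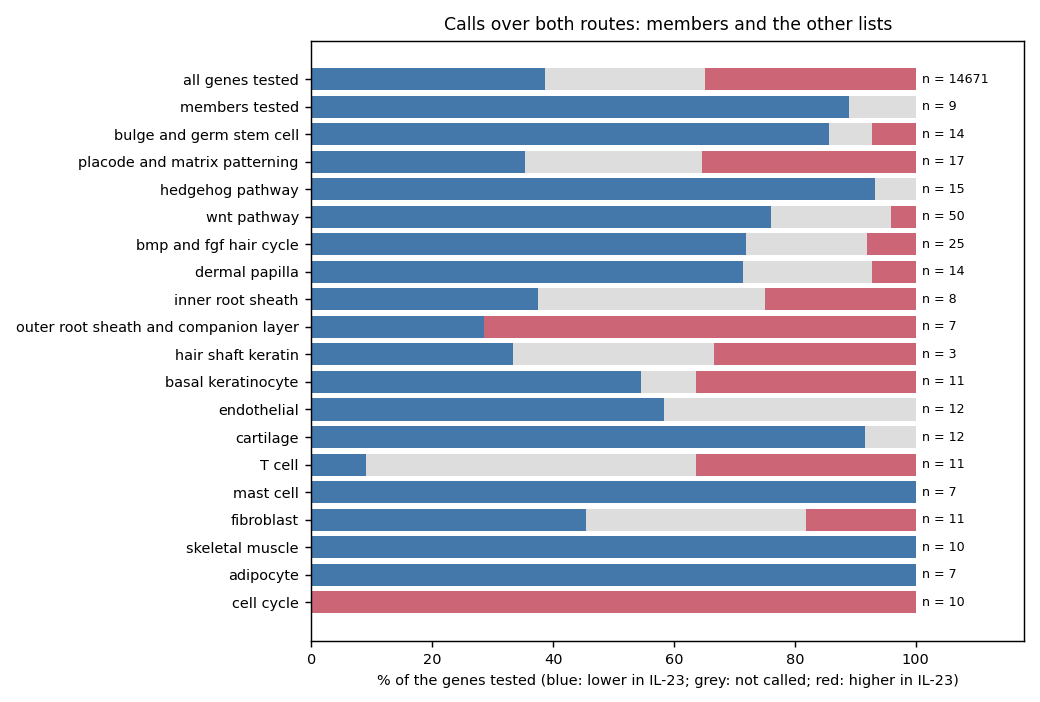
Share of the tested genes of each list that were lower (blue), not called (grey) or higher (red) with IL-23 over both routes, with the number tested at the right and all genes at the top. Members, bulge and germ and hedgehog lists are mostly blue, the placode and matrix list is divided like all genes, and the cell cycle list is all red.

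Structural genes of the follicle did not move as 1 group. Of the outer root sheath and companion layer list 5 of 7 tested rose and 2 fell, with a median of 2.75, led by Krt16, from 132 ± 83.5 to 5542 ± 1558 CPM (SD, n = 8 each), and by Krt6b. The number that fell was 1 with RLE scaling, with no count filter, by DESeq2 or without any 1 of 8 libraries (4, 24, 28, 33, 50, 59, 67 and 68). These keratins are also made by activated epidermis. In the inner root sheath list 3 of 8 tested fell, 2 rose and 3 were not called over both routes, with a median of -0.61. Of all genes 38.7% fell and 34.9% rose. In the oral groups none of the list fell (1 with plain scaling or without library 4 or 26) and 2 rose, against 34.0% and 29.2% of all genes. Dsc1, a desmosomal cadherin also found in the upper epidermis, rose by 1.91, and Tchh, trichohyalin, rose by 0.68 on the log2 scale. The keratin Krt73 fell by 1.26 over both routes, with -0.28 (edgeR adjusted p = 0.608) in the oral and -2.24 (adjusted p = 0.00467) in the intraperitoneal groups (adjusted p of the difference 0.875). Only 3 of 12 hair shaft keratins in the table could be tested, and the summed level of the 12 was 9.45 to 20.3 CPM with vehicle and 9.44 to 31.5 CPM with IL-23. Of the 3 tested, 1 rose, 1 fell and 1 was not called over both routes. Krt84 went from 1.72 ± 1.30 CPM with vehicle to 8.76 ± 1.71 CPM with IL-23 (SD, n = 8 each). Krt32 went from 6.15 ± 1.32 to 2.05 ± 0.93 CPM. The sums overlap, although these keratins went opposite ways. Hair shaft keratins, the defining products of a growing follicle, were low with both agents.

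Levels in CPM also move with the rest of the library. The basal keratinocyte sum was 17920 to 23450 CPM with vehicle and 20850 to 30130 CPM with IL-23. Of its 11 genes, however, 6 fell and 4 rose (2 with plain scaling), with a median of -0.28, so the sum and most single genes went opposite ways. The 4 called genes of the list with the largest folds at 1 CPM or more all fell. They were Dst (-1.79), Col17a1 (-1.25), Lama3 (-1.08) and Lamb3 (-1.08), which anchor basal cells to the basement membrane. The 4 genes that rose are not among them. All 10 cell cycle genes rose, with a median of 1.04. All 7 adipocyte and all 10 skeletal muscle genes tested fell, with medians of -1.96 and -1.22. The medians of the adipocyte and skeletal muscle lists lay further below 0 than that of the members, -1.05. The part of any of these lists in the members' results was not tested. Total counts ran from 7159325 to 14432930 in the vehicle and from 6381990 to 10078531 in the IL-23 libraries. With plain library scaling the median of all genes shifted by -0.21 and 31.9% of calls over both routes were higher, against 41.0% with upper-quartile scaling and 5117 of 10792 with TMM factors.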

How the data were processed

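The authors deposited raw read counts per gene for 16 mouse libraries, which came from a stranded total RNA kit per the labels' protocols. The submitters' processing notes list FastQC, STAR, featureCounts (Subread 1.5.0) and build GRCm38; annotation release, strand setting and multi-mapping were not given in those sources. The test was edgeR 4.0.16 under R 4.3.3: TMM, filterByExpr at a minimum count of 10, a quasi-likelihood fit of 4 group means with 12 residual degrees of freedom, and 2-sided p adjusted by Benjamini-Hochberg over 14671 genes at a threshold of 0.05. Shh came from a fit with no filter on 20799 genes with a count. An SE is the size of the log2 fold change divided by the root of F. CPM used TMM factors, and ratios of member pairs a pseudocount of 0.5. Exon lengths are from GENCODE, positions and promoters from RefSeq GRCm38.p6 (10, 10 and 5 of 10 genes used, with Nfatc1 left out of the promoter search). Alternatives were other scalings, filters, DESeq2 1.42.0, limma 3.58.1 voom and leaving out each library. Up to 4 called genes per list, those with the largest fold at 1 CPM or more, could be named. Sufu and Ctnnb1 were named after their values were seen. The 10 members and 18 lists were chosen with earlier results of these data known. On simulated counts over 14671 genes, changes of 1 and 2 on the log2 scale were recovered in 83% and 100% of 100 genes each for the comparison over both routes. The shares were lower within a route, 68% and 98% oral and 67% and 94% intraperitoneal. Reads carry no molecular identifiers. The exact binomial intervals for Shh cover counting error only, while the intervals of the edgeR fit include the variation between libraries.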

Additional observations from a re-analysis of the deposited data

Results flagged for a closer look

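The 4 libraries of each group were examined for a library far from the other 3, for each member, by Dixon's ratio above 0.829, in 40 combinations of gene and group. Chance flags about 1 in 20 groups, and 4 were found. Lgr6 stood at 16.2 CPM in IL-23 intraperitoneal library 25, below the 20.7 to 21.2 CPM of the others. Lhx2 stood at 14.1 CPM in IL-23 oral library 14, above 9.41 to 10.1 CPM, and still below all vehicle libraries. Dlx3 stood at 40.9 CPM in vehicle oral library 4, above 30.6 to 32.2 CPM. Shh stood at 0.38 CPM in IL-23 oral library 26, from 3 counts, where the other 3 libraries of the group held 0. Where 3 libraries are at 0, any count in the fourth gives a ratio of 1. The 1 in 20 therefore does not apply to Shh.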

How the results depend on the processing

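Of 910 alternative values for the members' fold changes, 869 kept their direction and side of the threshold, 6 lost the call, 1 gained it and 34 turned sign. Of 80 for the ratios of member pairs 79 kept both, and of 1978 for other named genes 1952 did. The number of members called was 8 in the oral groups and over both routes under every alternative, and 7 to 8 in the intraperitoneal groups. The 8 there include Shh, which enters only with no count filter. The Shh calls with a library left out, given above, are not in these numbers. Genes called ranged from 8433 to 9721 oral, 8279 to 9171 intraperitoneal and 10499 to 11398 over both routes. DESeq2 called 1 gene for the route difference. Values near 0 turned sign. Over both routes Dlx3 was -0.024 with upper-quartile and -0.15 with plain scaling, Dtx2 -0.052 and -0.18, and Pou2f3 -0.042 with plain scaling. The route difference of Lgr5 became -0.010 (RLE), -0.019 (upper quartile), -0.0080 (plain) and -0.0064 (DESeq2), and that of Lgr6 -0.012, -0.022, -0.0090 and -0.011. The cause was not tested. Leaving out 1 library at a time gave ranges of -0.29 to 0.0064 for Cd34 and -0.29 to 0.095 for Dlx3 in the intraperitoneal groups, -0.040 to 0.16 for Dlx3 and -0.033 to 0.11 for Dtx2 over both routes, and -2.59 to 0.92 for Shh in the oral groups. For the route difference they were -0.12 to 0.14 (Lgr5), -0.087 to 0.086 (Lgr6) and -0.020 to 0.21 (Lhx2), and for the log2 ratio of Sox9 to Lhx2 -0.032 to 0.18. Krt28 and Cd3e lost their call under some alternatives. No paired analysis was possible because no replicate number is shared between groups. Depth limits Shh, with 16 counts in all.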
